A study of Drosophila melanogaster with 16 samples.

Results

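The 64 genes described here are long non-coding RNA genes of the larval midgut of Drosophila melanogaster, taken by the prefix of their symbol and by their mean level. They were chosen from the deposited count table by a pair of conditions: a FlyBase identifier with a symbol that starts with lncRNA: or asRNA:, and a mean of at least 1 CPM (a gene's counts scaled to a common library total) over the 16 libraries of the deposited CPM table. Of 17873 genes in the table, 2450 had such a symbol, and 1121 of these had 0 counts in every library. The 64 members comprised 47 genes named lncRNA and 17 named asRNA, the prefix for transcripts antisense to another gene. Since the mean level chose them, their levels are given as a description. The members just inside the threshold were CR33963, CR45140 and CR44807 with means of 1.07, 1.02 and 1.01 CPM, and the genes just outside were CR42547, CR42254 and CR43480 with 0.952, 0.929 and 0.897 CPM.

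Midguts were compared between 2 genotypes and 2 days, with 4 libraries in each of the 4 groups. Mothers carrying mex-GAL4, which drives transgenes in enterocytes, the absorptive cells of the gut, were crossed to males with a UAS-Hnf4 RNAi transgene inserted at attP40 (Hnf4i) or to males with attP40 alone (mex-GAL4 / attP40, control), so all larvae carried the driver. The nuclear receptor gene Hnf4 was targeted with 1 hairpin line, and the parental stocks of the males differed. All larvae were raised in groups of 40 on yeast alone at 25 °C, and a library pooled 30 midguts on day 3 (D3, late L2 stage) or 10 midguts on day 4 (D4, early L3 stage). The sex of the larvae is not given.

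Long non-coding RNAs are transcripts without a long open reading frame. Some act as RNA, some are precursors from which microRNAs or small nucleolar RNAs are cut, and for many no role is known. In flies the RNAs roX1 and roX2 are parts of the male-specific lethal complex, which coats the male X chromosome and raises its transcription, and both are made mainly in males. Hsromega is a nuclear RNA induced by heat and other stress that gathers RNA-binding proteins in speckles. Antisense transcripts are read from the other strand of a gene's DNA. Their counts can hold reads of that gene where the counting does not use strand.

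The libraries held 44546248 to 83418453 counts, and the members took 0.144 to 0.233% of the counts assigned to genes. On D3 the Hnf4 transcript averaged 91.9 ± 2.69 CPM in control libraries and 48.4 ± 2.00 CPM in Hnf4i libraries (SD, n = 4), and on D4 it averaged 128 ± 4.09 and 64.6 ± 4.31 CPM, with an exact two-sided permutation p of 0.0286 on each day, the smallest that 4 libraries against 4 allow. Of the 6 enterocyte markers, all were detected, and their summed level was 3923 to 4433 CPM on D3. On D4 it was 7947 to 8534 CPM in control and 6220 to 8164 CPM in Hnf4i libraries. Under silencing on D4, 1 of the 6 was called higher and 2 lower, where 5.46% and 6.71% of all genes tested were. 3 Hnf4i D4 libraries held transcripts of the fat body, a tissue that lies next to the gut: the 7 markers summed to 1116, 855 and 2823 CPM in replicates 1, 2 and 4 and to 12.8 CPM in replicate 3, against 141 CPM in control D4 replicate 3 and 23.3 to 36.5 CPM in the other control D4 libraries. Control D3 replicate 4 held the highest summed level of the 4 neuron markers, 21.1 CPM against 10.6 to 14.99 CPM elsewhere. A fit without the 4 libraries with fat body transcripts (Hnf4i D4 replicates 1, 2 and 4 and control D4 replicate 3) leaves 1 Hnf4i D4 library. Its p-values for Hnf4i D4 therefore assume that this single library varies as the other groups do.

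The level of the members was very uneven. The 2 most abundant members held 79.1% and the first 4 held 88.0% of the summed mean CPM of all members. The median member had a mean of 2.22 CPM, 31 members were under 2 CPM and 8 were at or over 10 CPM. CR42862 (chromosome 3L, positions 224106 to 230964, plus strand) led with 1019 CPM, and CR44138 (chromosome 3R, positions 13376903 to 13377395, plus strand) followed with 380.3 CPM. roX1 (chromosome X, positions 3857230 to 3862697, minus strand), Hsromega (chromosome 3R, positions 21296127 to 21317836, plus strand) and CR42491 (chromosome X, positions 762615 to 763810, minus strand) came next with 112, 46.7 and 22.9 CPM. Per kb of exon the order of the first pair was reversed: CR44138, whose exons span 493 bases, had 771 CPM per kb, and CR42862, with 5485 exon bases, had 186 CPM per kb. On the same scale per kb, roX1 stood at 20.5, CR42491 at 30.7 and Hsromega, the longest member with 21710 exon bases, at 2.15.

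**Figure D1:**
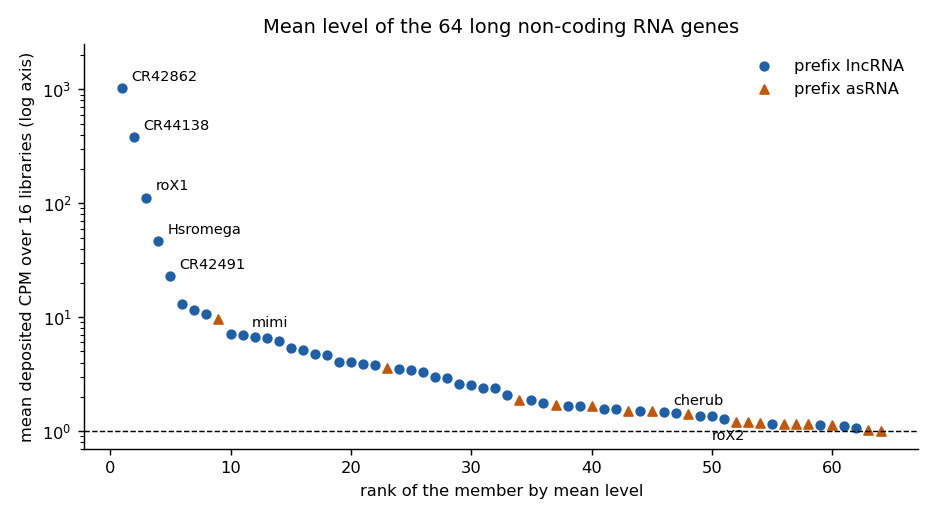
Mean deposited CPM over 16 libraries (vertical, log axis) of the 64 members in order of level, with circles for the prefix lncRNA, triangles for asRNA and a dashed line at the threshold of 1 CPM. The 5 labelled genes at the left, from CR42862 at 1019 CPM to CR42491 at 22.9 CPM, stand above a long tail near the threshold.

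41 members had a group mean of at least 1 CPM in all 4 groups, 21 in 2 or 3 groups and 2 in 1 group. The last 2 were cherub and CR32368. Members under 1 CPM in some groups met the rule through the groups where they are higher. Their calls toward those groups share the data of that choice. cherub (chromosome 3R, positions 11247631 to 11256123, minus strand), a long non-coding RNA studied in fly neural stem cells, stood at 0.0331, 0.0359, 0 and 21.5 CPM in control D3 replicates 1 to 4 and at no more than 0.119 CPM in the other 12 libraries, so a single library put it above the threshold. That library is the one with the highest neuron marker sum. The 4 genes Obp44a, fne, Rdl and cas were named after their values in that library were seen. Their high sum there, 13.2 CPM against 0.536 CPM or less elsewhere, was therefore fixed by the choice. The source of the cherub reads was not tested. cherub did not pass the count filter, which left 63 members among the 9801 genes tested.

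All 64 members were placed by the Ensembl annotation of BDGP6, the build named for the files. They lay on chromosome arms 3R (22 members), X (14), 2L (11), 3L (9) and 2R (8). The gene with the largest overlap was a coding gene on the opposite strand for 28 members and on the same strand for 11, and 25 members overlapped no coding gene. The exons of a member covered a median of 1371 bases (318 to 21710), and 32 members had a single exon block. For 35 members some exon bases were shared with another gene, and for 9 more than 50% were, so reads in the shared part cannot be assigned to one gene where the strand setting of the counting is not known. All 17 asRNA members and 18 of 47 lncRNA members were among these 35.

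Between D3 and D4 the members changed more often upward than downward in both genotypes. In control midguts 28 of 63 members rose and 6 fell (44.4% and 9.52%), where 17% and 22.2% of all 9801 genes tested rose and fell, 39.2% in all. A gene is called here when its Benjamini-Hochberg adjusted p from edgeR's quasi-likelihood test, fitted over all 9801 genes, is under 0.05 and its log2 fold change is at least 0.5 in size. Log2 fold changes are given ± SE. In Hnf4i midguts 29 rose and 7 fell (46% and 11.1%), where 18.8% and 23.9% of all genes did, 42.7% in all. The median log2 fold change of the members was 0.48 in control and 0.50 in Hnf4i midguts, against 0.01 and -0.01 over all genes tested. These values rest on TMM scaling, under which the middle of all genes is held near 0. With library totals alone, the scaling of the deposited CPM, the median of all genes moved to -0.29 and -0.28 and that of the members to 0.18 and 0.24, and 14 members were called higher and 9 lower in control and 17 higher and 7 lower in Hnf4i midguts. Of all genes, 9.19% were then called higher and 34.3% lower in control, and 11.4% and 34.1% in Hnf4i midguts. The 14 rises lost in control were those of Hsromega, CR42862, CR42549, CR42839, CR32218, CR43431, CR44417, CR44429, CR44526, CR44758, CR44987, CR45048, CR45140 and CR46268, and CR43629, CR45004 and CR45409 were called lower. In Hnf4i midguts the 12 rises lost were those of CR42862, CR44138, CR42549, CR42839, CR43496, CR44318, CR44417, CR44758, CR44807, CR45018, CR46089 and CR46450.

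The D3 and D4 libraries did not overlap for 24 members that were higher and 6 that were lower on D4 in control midguts, where 29.1% and 29.9% of all genes tested did not overlap in these directions. In Hnf4i midguts these numbers were 25 and 6, beside 27.7% and 30.7% of all genes. Of the calls, 23 members rose and 4 fell in both genotypes, and CR44138 was called in opposite directions. Since whole midguts were sequenced, fewer cells of a type and less RNA per cell cannot be told apart for any of these changes. The remaining calls were made in 1 genotype, which does not show that the genotypes differed. Among members whose exons are shared with no other gene, 14 rose and 3 fell in control, and 14 rose and 1 fell in Hnf4i midguts. These numbers leave out the 35 of 64 members with shared exon bases. Of all genes tested, 17% rose and 22.2% fell in control, and 18.8% rose and 23.9% fell in Hnf4i midguts. Without the 4 libraries with fat body transcripts, 30 of the 34 control calls remained, those of CR32218, CR44417, CR45048 and CR46268 being lost. 26 of the 36 Hnf4i calls remained in that fit, with 1 Hnf4i D4 library against 4 D3 libraries, and those of CR42862, CR42839, CR43496, CR44417, CR44758, CR45018, CR45345, CR46033, CR46089 and CR46450 were lost.

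**Figure D2:**
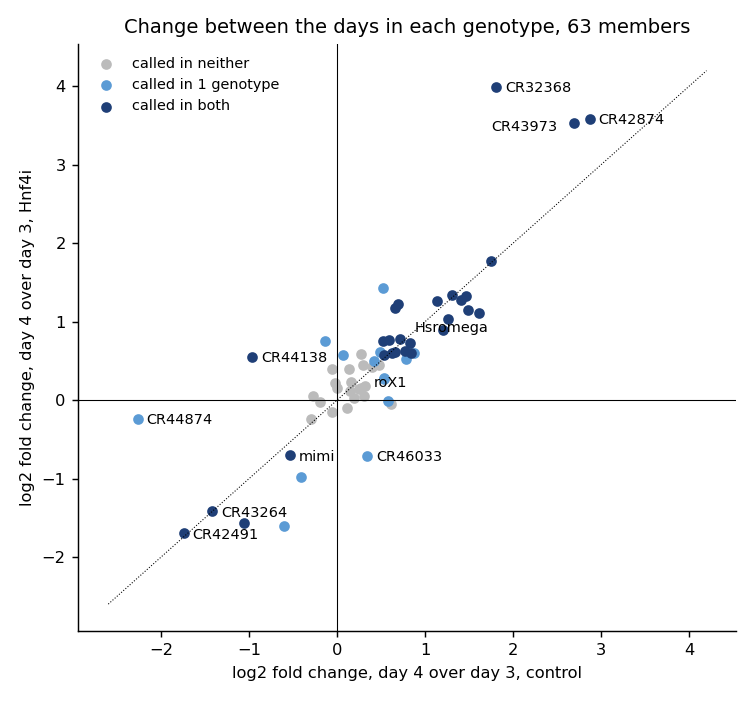
Log2 fold change of D4 over D3 in control (horizontal) and Hnf4i midguts (vertical) for the 63 members tested, shaded by the number of genotypes in which the member was called; the dotted line marks equal change. Most members lie in the upper right, CR42491 and CR43264 lie at the lower left, and CR44138 fell in control (-0.97) and rose in Hnf4i midguts (0.55).

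The most abundant member, CR42862, rose between the days in both genotypes. It stood at 809.5, 705, 883 and 786 CPM in control D3 and 1176, 1241, 1411 and 1181 CPM in control D4 replicates 1 to 4, with no overlap. The Hnf4i libraries stood at 788, 881, 904 and 733 CPM on D3 and 1463, 1191, 1100.3 and 1318 CPM on D4. The log2 fold change was 0.65 ± 0.0946 (adjusted p = 1.15e-05) in control and 0.62 ± 0.0946 (adjusted p = 1.94e-05) in Hnf4i midguts. CR42862 overlaps CG33229 on the same strand by 246 exon bases, which is 4.49% of its exons, and CG33229 rose as well, by 0.58 and 0.52. Without the 4 libraries with fat body transcripts the Hnf4i value was 0.42 (adjusted p = 0.00766), under the fold minimum. With library totals alone both values were also under it, at 0.36 (adjusted p = 0.00286) and 0.36 (adjusted p = 0.00276).

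Hsromega rose in both genotypes, from 38.1, 32.4, 41.7 and 38.0 CPM to 63.8, 71.6, 56.4 and 54.8 CPM in control and from 35.3, 34.3, 35.7 and 30.1 CPM to 60.2, 53.4, 57.2 and 60.8 CPM in Hnf4i midguts. Every D4 library was above every D3 library. The log2 fold changes were 0.72 ± 0.0901 (adjusted p = 2.32e-06) and 0.77 ± 0.0904 (adjusted p = 8.55e-07), and with library totals alone 0.42 (adjusted p = 4.35e-04) and 0.51 (adjusted p = 5.92e-05). Of 11 tested genes of RNA-binding proteins held by Hsromega or of the heat shock response, none was called higher. In control 4 fell (Hrb87F, Hrb98DE, sqd and Hsp83) and in Hnf4i midguts 3 fell (sqd, Hsp26 and Hsp27). Of all genes tested, 17% rose and 22.2% fell in control, and 18.8% rose and 23.9% fell in Hnf4i midguts. The hnRNP gene sqd fell by 0.82 in control and by 0.83 in Hnf4i midguts on the log2 scale. The mimi RNA (chromosome 3R, positions 23983503 to 23985065, plus strand) went the other way: it stood at 6.68, 7.58, 8.93 and 8.57 CPM on D3 and 5.41, 5.29, 5.71 and 5.49 CPM on D4 in control, and at 8.21, 8.95, 8.66 and 8.85 CPM on D3 and 4.87, 6.10, 5.68 and 4.68 CPM on D4 in Hnf4i midguts. Its log2 fold change was -0.54 ± 0.102 (adjusted p = 2.02e-04) in control and -0.70 ± 0.102 (adjusted p = 1.13e-05) in Hnf4i midguts, and the libraries of the days did not overlap. Leaving out control D3 replicate 3 or 4 brought the control value of mimi to -0.48 (adjusted p = 0.00107) or -0.50 (adjusted p = 0.00104), short of the fold minimum of 0.5 before rounding. Neither Hsromega nor mimi was called under Hnf4 silencing on either day.

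Among the members that rose most were CR42874, CR43973 and CR32368, each low on D3. CR42874 was under 1 CPM in every D3 library, so the D4 libraries put it over the member threshold. Its changes between the days share the data of that choice and are given as a description. CR42874 (chromosome 2L, positions 1989450 to 1990894, plus strand) stood at 0.464, 0.557, 0.303 and 0.563 CPM on D3 and 2.93, 3.23, 4.06 and 3.64 CPM on D4 in control, a log2 fold change of 2.87 ± 0.275 (adjusted p = 8.35e-08). In Hnf4i midguts it stood at 0.358, 0.349, 0.214 and 0.203 CPM on D3 and 3.30, 1.90, 3.80 and 4.56 CPM on D4, with 3.59 ± 0.293 (adjusted p = 1.04e-08). CR42874 starts 1160 bases from the start of Npc2a, which encodes a Niemann-Pick type C-2 sterol transport protein and rose too, by 1.65 and 1.80. CR43973 (chromosome 3L, positions 15098534 to 15099502, minus strand) stood at 1.31, 1.80, 1.40 and 1.58 CPM on D3 and 11.9, 10.5, 9.02 and 8.08 CPM on D4 in control, with 2.70 ± 0.130 (adjusted p = 2.29e-11). It lies within Ctps, the gene of CTP synthase, on the opposite strand and shares no exon base with it. Ctps moved against it, with -0.99 (adjusted p = 3.66e-08) in control and -1.34 (adjusted p = 9.29e-10) in Hnf4i midguts.

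Other members that rose in both genotypes with no overlap between the libraries of the days were CR45999, CR44148, CR45517, CR45102 and CR44192. Their log2 fold changes in control were 1.76, 1.61, 1.49, 1.47 and 1.41, and in Hnf4i midguts 1.78, 1.11, 1.15, 1.32 and 1.27. The most abundant of them, CR45102 (chromosome X, positions 3701857 to 3703285, plus strand), stood at 7.36, 6.59, 6.89 and 7.45 CPM in control D3 and 18.8, 20.8, 19.1 and 19.4 CPM in control D4 libraries. It overlaps no coding gene, and the nearest start, 17778 bases away, is that of the small GTPase gene Rala, which rose by 0.77 in control. The antisense genes CR45999 and CR44192 share 71.8% and 54.9% of their exon bases with other genes. CR44192 lies over Npc2e, a second gene of the sterol transport family, which did not pass the count filter. Of the remaining members with the highest levels, CR42549, CR42839 and CR45215 rose by 0.62, 0.77 and 1.26 in control and by 0.60, 0.63 and 1.03 in Hnf4i midguts. With library totals alone the calls of CR42549 and CR42839 were lost in both genotypes, at 0.33 (adjusted p = 0.00129) and 0.48 (adjusted p = 0.00131) in control and 0.34 (adjusted p = 8.93e-04) and 0.37 (adjusted p = 0.00792) in Hnf4i midguts, and CR45215 was still called. CR42839 starts 1032 bases from GATAe, a transcription factor gene of the fly gut, which was not called between the days. Without the 4 libraries with fat body transcripts the Hnf4i value of CR42839 was 0.37 (adjusted p = 0.0941).

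The members that fell between the days in both genotypes were CR42491, CR43264, mimi and CR44047. CR42491 stood at 27.7, 29.4, 40.2 and 35.2 CPM in control D3 and 10.0, 11.1, 8.61 and 9.86 CPM in control D4 libraries. The Hnf4i libraries stood at 29.0, 37.1, 32.5 and 35.2 CPM on D3 and 11.7, 11.4, 9.01 and 9.17 CPM on D4, so no D4 library reached any D3 library. The log2 fold changes were -1.74 ± 0.126 (adjusted p = 2.55e-09) and -1.70 ± 0.126 (adjusted p = 3.34e-09). CR42491 lies over RpL22, the gene of a ribosomal protein, on the same strand, and a gene of a small nucleolar RNA lies in the same stretch. 377 of its 747 exon bases belong to RpL22 as well, and RpL22 had log2 fold changes of -0.48 (adjusted p = 2.11e-07) in control, short of the fold minimum, and -0.63 (adjusted p = 6.32e-09) in Hnf4i midguts.

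CR43264 (chromosome X, positions 5831898 to 5832215, minus strand), the member with the shortest exons, fell by 1.42 on the log2 scale in each genotype. It stood at 9.21, 9.59, 16.4 and 11.2 CPM in control D3 and 5.68, 3.54, 3.93 and 4.26 CPM in control D4 libraries, and at 5.73, 8.15, 6.50 and 6.01 CPM on D3 and 2.43, 2.83, 2.12 and 2.50 CPM on D4 in Hnf4i midguts. The libraries of the days did not overlap in either genotype. The antisense gene CR44047 (chromosome 3R, positions 20827095 to 20828212, plus strand) had log2 fold changes of -1.05 (adjusted p = 0.00707) and -1.57 (adjusted p = 2.97e-04), and Adss beneath it, which encodes adenylosuccinate synthetase, had -0.77 and -0.76. In Hnf4i midguts CR45004 and CR43629 fell too, by 1.60 and 0.98 on the log2 scale, where control midguts had -0.61 (adjusted p = 0.125) and -0.41 (adjusted p = 0.0276).

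Under Hnf4 silencing 7 of the 63 members tested were called on each day. On D3, 2 of 63 members were higher and 5 lower in Hnf4i midguts (11.1% in all), where 1.51% of all genes tested were higher and 2.46% lower, 3.97% in all. On D4, 5 were higher and 2 lower (11.1%), where 5.46% of all genes were higher and 6.71% lower, 12.2% in all. CR32368, among these 5, met the member rule only through the Hnf4i D4 libraries. It is also counted among the rises in Hnf4i midguts and among the interaction and averaged calls below. The libraries of the genotypes did not overlap for 6 members that were higher and 5 that were lower on D3, beside 8.32% and 9.05% of all genes, and for 9 and 3 members on D4, beside 12.2% and 12.1%. With library totals alone 4 members were higher and 4 lower on D3, where 2.17% and 2.16% of all genes were, and 8 higher and 2 lower on D4, where 7.78% and 5.27% were. CR43460 (1.26, adjusted p = 0.0253) and CR45479 (-1.10, adjusted p = 0.0459) were called on D4 in the fit without the 4 libraries with fat body transcripts, with its single Hnf4i D4 library, and CR43460 also without control D4 replicate 3 alone. In all, 11 members were called on either day, and CR46489, CR43264 and CR44526 were called in the same direction on both. The interaction, the change that silencing made on D4 less the change it made on D3, passed for 4 members (6.35%), 3 with a positive and 1 with a negative value, where 2.59% and 2.44% of all genes passed in these directions, 5.03% in all. Silencing averaged over the days, a comparison added after values had been seen, was called for 6 members that were higher and 4 that were lower (15.9%), where 3.38% and 4.21% of all genes were, 7.59% in all.

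**Figure D3:**
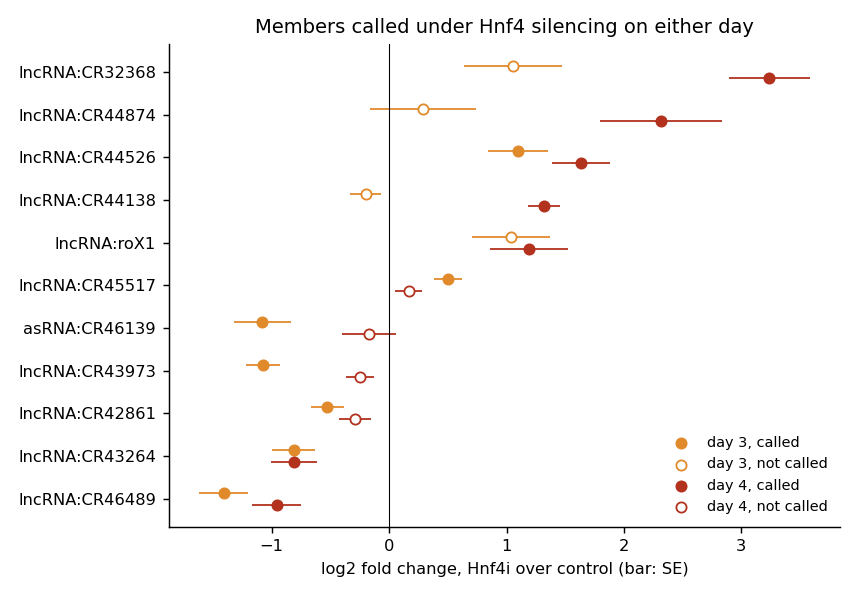
Log2 fold change of Hnf4i over control with its SE (bars) on D3 (orange) and D4 (red) for the 11 members called on either day, with filled points where the member was called. CR44526, CR43264 and CR46489 are filled on both days, and CR32368 has the largest value, 3.24 on D4.

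Of the X-coating RNAs, roX1 was higher in Hnf4i midguts on D4. On D3 it stood at 47.1, 75.6, 26.1 and 104 CPM in control libraries, and at 156, 112, 126 and 126 CPM in Hnf4i replicates 1 to 4. On D4 it stood at 77.3, 79.8, 83.5 and 69.9 CPM in control libraries, and at 99.5, 128, 204 and 277 CPM in Hnf4i libraries. Every Hnf4i library was above every control library of its day. The log2 fold change was 1.04 ± 0.333 (adjusted p = 0.0676) on D3, which did not pass, and 1.19 ± 0.334 (adjusted p = 0.0133) on D4, which did. Averaged over the days it was 1.12 ± 0.236 (adjusted p = 0.00197). Without Hnf4i D4 replicate 4 the D4 value was 0.89 (adjusted p = 0.0575), and without control D3 replicate 4 the D3 value was 1.39 (adjusted p = 0.0146). Without the 4 libraries with fat body transcripts the D3 value was 1.04 (adjusted p = 0.0443), and the single Hnf4i D4 library left gave 1.46 (adjusted p = 0.0341), with the spread taken from the other groups. The D3 value was also called with DESeq2, at 1.03 (adjusted p = 0.0493), with library totals alone, at 1.11 (adjusted p = 0.0360), and without Hnf4i D4 replicate 1 or 4.

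roX2 (chromosome X, positions 11579065 to 11580432, plus strand) was far less abundant, at 0.978, 1.06, 0.0840 and 1.35 CPM in control libraries, and at 1.97, 1.03, 1.22 and 1.39 CPM in Hnf4i libraries on D3. On D4 it stood at 1.15, 0.847, 1.46 and 0.736 CPM in control libraries, and at 1.41, 2.05, 1.94 and 2.96 CPM in Hnf4i libraries, and the genotypes overlapped on both days. Its log2 fold changes of 0.68 (adjusted p = 0.498) on D3, 0.99 (adjusted p = 0.129) on D4 and 0.84 (adjusted p = 0.0721) averaged over the days did not pass. Without control D3 replicate 3, with 5 counts of roX2, the D4 value was 0.99 (adjusted p = 0.0144) and the averaged value 0.65 (adjusted p = 0.0301). None of the 7 genes of the dosage compensation machinery (msl-1, msl-2, msl-3, mle, mof, Clamp and Sxl) was called by edgeR or DESeq2 in any of the 5 comparisons. At an unadjusted p under 0.05 there were 3 of them between the days in control, 1 in Hnf4i midguts, 1 under silencing on each day and 0 for the interaction. Of all genes tested, edgeR called 39.2% between the days in control and 42.7% in Hnf4i midguts. Under silencing it called 3.97% on D3 and 12.2% on D4, and for the interaction 5.03%. msl-2 encodes the male-limiting protein of the complex, and Sxl encodes the female factor that blocks it. Control D3 replicate 3 had the lowest roX1, roX2 and msl-2 of the 16 libraries (26.1, 0.0840 and 6.61 CPM) and the highest Sxl (77.2 CPM). Hnf4i D4 replicate 4 had the highest roX1, roX2 and msl-2 (277, 2.96 and 16.2 CPM) and the lowest Sxl (39.7 CPM). With the sex of the pooled larvae not given, a larger share of males and more roX RNA per male cannot be told apart.

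**Figure D4:**
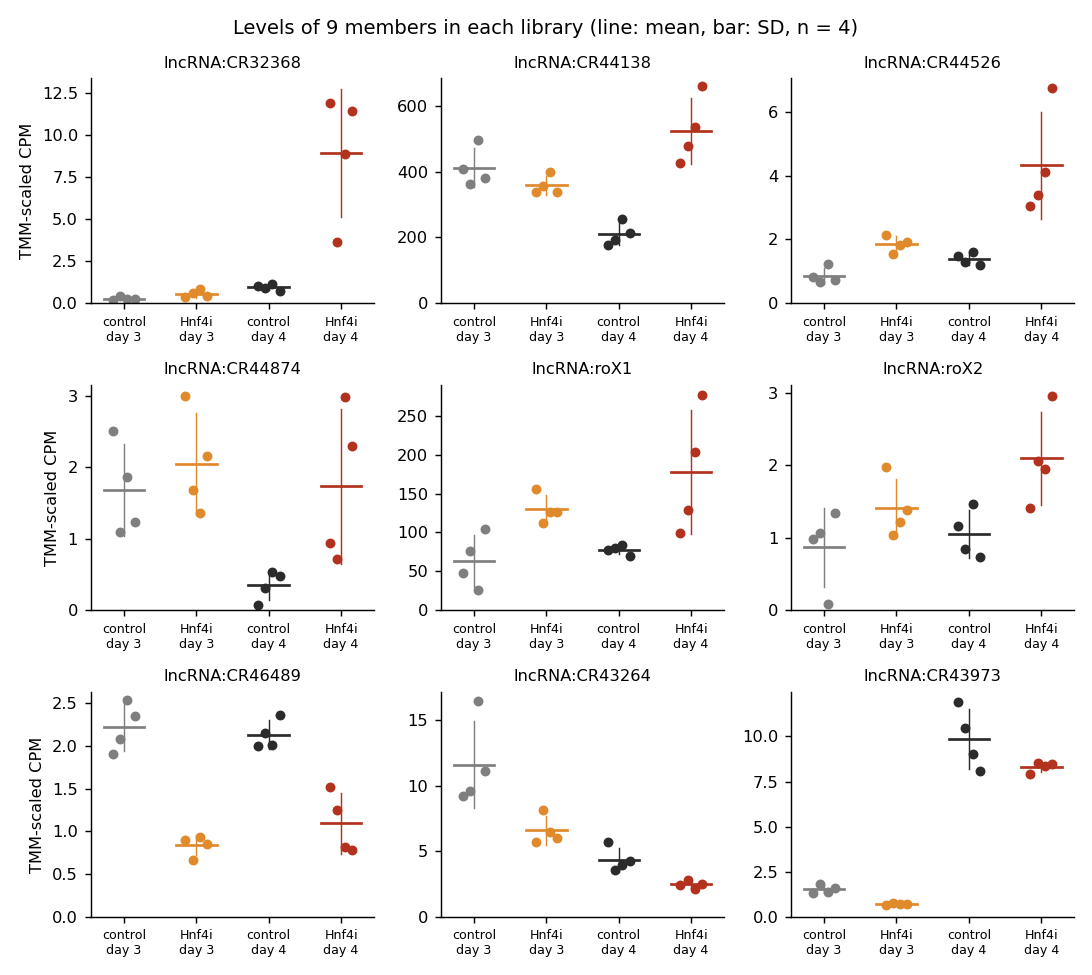
TMM-scaled CPM of 9 members in each of the 16 libraries by group, with the mean (line) and SD (bar) of 4 libraries. CR32368 is high in Hnf4i D4 libraries (3.61 to 11.9 CPM), CR44138 is low in control D4 libraries (176 to 257 CPM), and CR46489 is lower in Hnf4i libraries on both days.

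The largest difference under silencing was that of CR32368 (chromosome 3L, positions 7915437 to 7915846, plus strand), a gene of 410 exon bases that overlaps no coding gene. It reached a group mean of 1 CPM in Hnf4i D4 alone, so the group where it is high put it over the member threshold. Its silencing values on D4 and averaged over the days, its interaction and its Hnf4i change between the days share the data of that choice. They are given as a description. It stood at 0.199, 0.413, 0.252 and 0.219 CPM in control D3 and 0.338, 0.592, 0.869 and 0.407 CPM in Hnf4i D3 libraries. On D4 it stood at 1.02, 0.888, 1.16 and 0.714 CPM in control libraries, and at 11.9, 3.61, 8.84 and 11.4 CPM in Hnf4i libraries. Every Hnf4i D4 library was above every library of the other groups. The part of fat body RNA in this difference was not tested. The log2 fold change was 1.05 ± 0.419 (adjusted p = 0.159) on D3 and 3.24 ± 0.346 (adjusted p = 2.15e-06) on D4, and the interaction was 2.18 ± 0.547 (adjusted p = 0.0200). Between the days it rose in both genotypes, with 1.81 (adjusted p = 8.77e-04) in control and 3.99 (adjusted p = 3.83e-08) in Hnf4i midguts. Without control D3 replicate 2 the interaction was 1.92 (adjusted p = 0.0639), and without Hnf4i D4 replicate 2 the D3 value was 1.06 (adjusted p = 0.0435). With 1 Hnf4i D4 library left, in the fit without fat body transcripts, the D4 value was 3.36 (adjusted p = 6.42e-05), with the spread taken from the other groups. Tmem43, whose start is 317 bases away on the opposite strand, had a log2 fold change of 0.00 (adjusted p = 0.998) on D4.

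CR44138, the second most abundant member, fell with age in control midguts and rose with age in Hnf4i midguts. It stood at 407, 364, 496 and 379 CPM in control D3 and 176, 193, 257 and 215 CPM in control D4 libraries. In Hnf4i midguts it stood at 339, 357, 399 and 337 CPM on D3 and 427, 477, 534 and 659 CPM on D4, and neither pair of days overlapped. The log2 fold change between the days was -0.97 ± 0.135 (adjusted p = 7.25e-06) in control and 0.55 ± 0.134 (adjusted p = 0.00159) in Hnf4i midguts. Silencing gave -0.20 ± 0.133 (adjusted p = 0.475) on D3 and 1.32 ± 0.136 (adjusted p = 1.35e-06) on D4, and the interaction was 1.52 ± 0.190 (adjusted p = 1.05e-04). Without Hnf4i D4 replicate 4 the Hnf4i change between the days was 0.42 (adjusted p = 0.00749), under the fold minimum. With library totals alone it was 0.28 (adjusted p = 0.0568), not called, so the rise rests on the scaling, while the interaction was still called. The member lies within CG9813 on the opposite strand with no shared exon base. CG9813 had log2 fold changes of -0.45 and 0.48 between the days, neither called, 0.65 (adjusted p = 0.00215) under silencing on D4 and an interaction of 0.93 (adjusted p = 0.00647).

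CR44526 (chromosome 3L, positions 8692703 to 8693191, plus strand) was higher in Hnf4i midguts on both days. On D3 it ranged over 0.664 to 1.23 CPM in control libraries (n = 4), and its Hnf4i libraries had 2.13, 1.53, 1.81 and 1.90 CPM. On D4 the control libraries had 1.49, 1.29, 1.60 and 1.18 CPM and the Hnf4i libraries 3.04, 3.39, 4.11 and 6.74 CPM. No Hnf4i library fell within the control range of its day. The log2 fold changes were 1.10 ± 0.253 (adjusted p = 0.00947) and 1.63 ± 0.245 (adjusted p = 8.69e-05), and the interaction of 0.54 (adjusted p = 0.421) did not pass. CR44526 overlaps no coding gene, and the nearest start, 16944 bases away, is that of hry, the gene of the repressor Hairy, which was not called. CR44874 (chromosome 2L, positions 10051362 to 10052289, plus strand) was called higher in Hnf4i midguts on D4, where it stood at 0.0665, 0.305, 0.534 and 0.469 CPM in control libraries, and at 0.942, 0.714, 2.98 and 2.29 CPM in Hnf4i libraries. On D3 it stood at 2.50, 1.10, 1.87 and 1.24 CPM in control libraries, and at 3.00, 1.68, 1.36 and 2.16 CPM in Hnf4i libraries, which overlap. The log2 fold change was 0.29 (adjusted p = 0.825) on D3 and 2.31 (adjusted p = 0.00294) on D4. Its interaction of 2.03 (adjusted p = 0.0844) did not pass, and it passed in 3 alternatives, at 2.28 (adjusted p = 0.0353) without Hnf4i D4 replicate 2, 2.06 (adjusted p = 0.0198) with the DESeq2 Wald test and 3.13 (adjusted p = 0.0127) with the single Hnf4i D4 library left without the 4 fat body libraries. CG33301, which starts 1782 bases away on the same strand, had 0.07 (adjusted p = 0.950) and 2.07 (adjusted p = 9.03e-05) under silencing, and -2.12 between the days in control, where CR44874 had -2.27.

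CR46489 and CR43264 were lower in Hnf4i midguts on both days. CR46489 (chromosome 2R, positions 3481473 to 3483439, minus strand) stood at 1.91, 2.08, 2.54 and 2.35 CPM in control libraries, and at 0.895, 0.668, 0.930 and 0.850 CPM in Hnf4i libraries on D3. On D4 it stood at 2.00, 2.15, 2.01 and 2.37 CPM in control libraries, and at 1.52, 1.25, 0.821 and 0.783 CPM in Hnf4i libraries, again without overlap. The log2 fold changes were -1.41 ± 0.210 (adjusted p = 1.95e-04) and -0.96 ± 0.208 (adjusted p = 0.00241), and the interaction of 0.45 (adjusted p = 0.420) did not pass. It overlaps no coding gene, and the nearest start of one is 119037 bases away. For CR43264 silencing gave -0.81 ± 0.181 (adjusted p = 0.00741) on D3 and -0.81 ± 0.196 (adjusted p = 0.00511) on D4. Without the 4 libraries with fat body transcripts, which leave 1 Hnf4i D4 library, the D4 value was -1.05 (adjusted p = 0.0610). CG15765, which holds CR43264 on its other strand, was not called in any comparison.

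CR43973, CR46139, CR42861 and CR45517 were called on D3 and not on D4. CR43973 stood at 1.31, 1.80, 1.40 and 1.58 CPM in control libraries, and at 0.656, 0.774, 0.732 and 0.702 CPM in Hnf4i libraries on D3, with -1.08 ± 0.144 (adjusted p = 6.68e-05). On D4 it stood at 11.9, 10.5, 9.02 and 8.08 CPM in control libraries, and at 7.92, 8.52, 8.34 and 8.48 CPM in Hnf4i libraries, with -0.25 (adjusted p = 0.135). The interaction was 0.83 ± 0.186 (adjusted p = 0.00987), so the smaller difference on D4 passed the test of the difference, and it was 0.83 (adjusted p = 0.0598) without the 4 libraries with fat body transcripts. The antisense gene CR46139 (chromosome 3R, positions 4393350 to 4394493, plus strand) stood at 1.54, 0.664, 1.18 and 1.28 CPM in control libraries, and at 0.616, 0.561, 0.564 and 0.462 CPM in Hnf4i libraries on D3, with -1.08 ± 0.244 (adjusted p = 0.00803), and had -0.17 (adjusted p = 0.640) on D4. Its averaged effect of -0.63 (adjusted p = 0.0105) was -0.58 (adjusted p = 0.107) without the 4 libraries with fat body transcripts. CR46139 shares 58.5% of its exon bases with other genes, and CG34112 on the other strand was lower on both days, with log2 fold changes of -0.61 and -0.69. On D3 CR42861 stood at 5.24, 4.69, 4.47 and 3.50 CPM in control libraries, and at 3.12, 2.97, 3.49 and 2.83 CPM in Hnf4i libraries, with -0.53 (adjusted p = 0.0238). CR45517 went the other way, at 2.63, 2.01, 2.17 and 2.36 CPM in control libraries, and at 3.58, 3.72, 2.93 and 2.79 CPM in Hnf4i libraries, with 0.50 (adjusted p = 0.0125). Neither member's libraries overlapped between the genotypes on D3. The call of CR42861 was lost without any one of 6 D3 libraries (control replicates 1, 2 and 3 and Hnf4i replicates 1, 2 and 4) and that of CR45517 without any one of 4 (control replicates 2 and 3 and Hnf4i replicates 1 and 2), the lowest sizes being -0.44 (adjusted p = 0.0956) and 0.43 (adjusted p = 0.0527). With library totals alone CR42861 was lost too, at -0.45 (adjusted p = 0.0451), and CR45517 was lost with DESeq2 size factors, 0.49 (adjusted p = 0.0144), with the DESeq2 Wald test, 0.49 (adjusted p = 0.00373), with all entries of the table, 0.50 (adjusted p = 0.0131), and with the compared groups alone, 0.50 (adjusted p = 0.0531). The remaining interaction was that of the antisense gene CR46033, at -1.05 ± 0.282 (adjusted p = 0.0282). Its levels were 0.845, 0.772, 1.09 and 1.25 CPM in control D3, 1.49 to 1.59 CPM in Hnf4i D3, 1.31, 1.19, 1.51 and 1.00 CPM in control D4 and 0.779, 1.10, 0.907 and 0.955 CPM in Hnf4i D4 libraries. It had 0.34 (adjusted p = 0.148) between the days in control and -0.71 (adjusted p = 0.00478) in Hnf4i midguts, and the call was lost without any one of 7 libraries (control D3 replicates 1 and 2, Hnf4i D3 replicates 2 and 3, control D4 replicates 1 and 3 and Hnf4i D4 replicate 1), the smallest size being -0.95 (adjusted p = 0.0578). Both calls of CR46033 were lost without the 4 libraries with fat body transcripts, with 1 Hnf4i D4 library left, the interaction at -0.96 (adjusted p = 0.147) and the Hnf4i change between the days at -0.75 (adjusted p = 0.0756).

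Several members hold genes of small RNAs that are cut from longer transcripts, and the mature small RNAs are not measured in libraries of polyadenylated RNA. The annotation placed 8 microRNA genes on the same strand within 6 members: mir-277 and mir-34 in CR43459, mir-375 in CR45345, mir-958 in CR43270, mir-281-1 and mir-281-2 in CR46194, mir-9381 in mimi and mir-4951 in Hsromega. CR45345 (chromosome 2L, positions 857403 to 860079, plus strand) rose, from 2.47, 2.42, 2.59 and 2.46 to 7.40, 5.83, 4.34 and 5.45 CPM in control and from 3.38, 2.73, 3.48 and 2.38 to 5.76, 5.71, 4.06 and 6.68 CPM in Hnf4i midguts, with 1.21 (adjusted p = 1.12e-05) and 0.89 (adjusted p = 2.21e-04). The days did not overlap in either genotype, and the Hnf4i value was 0.45 (adjusted p = 0.109) without the 4 libraries with fat body transcripts. CR43459, CR43270 and CR46194 were called in no comparison, with levels over the 16 libraries of 3.50 to 7.07, 3.82 to 8.35 and 1.23 to 2.19 CPM. None of the 6 was called under silencing by edgeR or DESeq2, or had an unadjusted p under 0.05 there (0 of 6 on each day). By edgeR, 3.97% of all genes tested were called under silencing on D3 and 12.2% on D4. Of 6 microRNA processing genes, Ranbp21 fell between the days in both genotypes, by 0.88 and 0.60 on the log2 scale, and the other 5 were not called. Of all genes tested, 22.2% fell in control and 23.9% in Hnf4i midguts.

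The host genes of small nucleolar RNAs named Uhg carry no lncRNA prefix and so are not members, and they moved against the majority of members. All 6 Uhg genes tested fell between the days in both genotypes, with median log2 fold changes of -2.55 in control and -2.51 in Hnf4i midguts. Their summed level was 81.6 to 119 CPM on D3 and 13.3 to 26.5 CPM on D4. The 8 genes of the proteins that assemble with small nucleolar RNAs fell as well, with medians of -2.97 and -2.87, among them fibrillarin (Fib) at -3.23 (adjusted p = 2.55e-10) and -3.21 (adjusted p = 2.95e-10). None of these 14 genes was called under silencing on either day by edgeR or DESeq2, and 0 had an unadjusted p under 0.05. Of all genes tested, edgeR called 22.2% lower between the days in control and 23.9% in Hnf4i midguts. Under silencing it called 3.97% on D3 and 12.2% on D4. Of the 3 Bithorax complex genes, Ubx and abd-A fell between the days in both genotypes, and abd-A, with -0.56 (adjusted p = 0.0177), was lower under silencing on D4.

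A member and the coding gene over or next to it could be compared for 52 members whose neighbour was tested. In control midguts 25 of 33 overlapping pairs had the same sign between the days, with a Pearson's r of 0.33 and a Spearman's rho of 0.46 across pairs, which share libraries and, for many, reads. Both genes were called in 11 pairs, 9 in the same direction and 2 in opposite directions. In Hnf4i midguts 24 of 33 pairs had the same sign, and both genes were called in 12, 10 in the same direction. Of the 19 pairs with the nearest start, 12 had the same sign in control and 13 in Hnf4i midguts. Of the 63 members tested, 48 had a positive value in control. No share of equal signs among unrelated pairs of genes was computed to set beside these numbers. The pairs called in opposite directions in both genotypes were CR43973 with Ctps and CR44417 with Mapmodulin among overlapping genes, and mimi with CG13603 among nearest starts. CR44417, which lies on the strand opposite to Mapmodulin without shared exon bases, had 0.53 (adjusted p = 0.0416) in control, where Mapmodulin had -0.63 (adjusted p = 1.19e-08). That call of CR44417 was lost without any one of 7 libraries (control D3 replicates 2, 3 and 4, Hnf4i D3 replicate 2 and control D4 replicates 1, 2 and 3), and without the 4 libraries with fat body transcripts it was 0.39 (adjusted p = 0.116). In Hnf4i midguts CR44417 had 0.76 (adjusted p = 0.00579), which was 0.30 (adjusted p = 0.448) in that fit and 0.49 (adjusted p = 0.0555) with library totals alone. CR45215 and the copper transporter gene Ctr1B, on the same strand with 185 shared exon bases, rose together, by 1.26 and 1.88 in control. Ctr1B was also higher under silencing, with 0.86 (adjusted p = 0.00108) and 0.71 (adjusted p = 0.00212), and CR45215 was called on neither day.

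**Figure D5:**
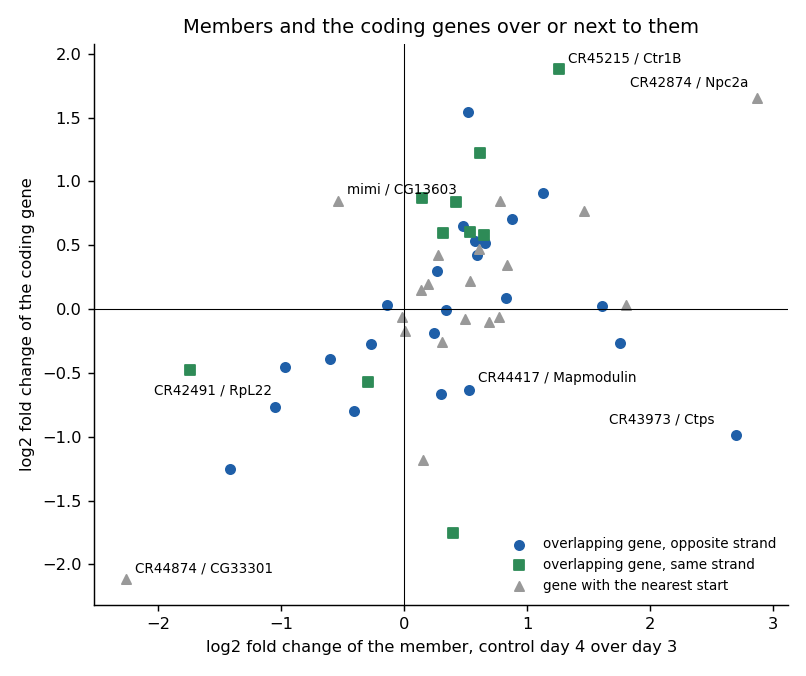
Log2 fold change of D4 over D3 in control midguts for a member (horizontal) and for the coding gene over it (circles: opposite strand, squares: same strand) or with the nearest start (triangles), for 52 pairs. Most overlapping pairs, 25 of 33, lie in the quadrants of equal sign, and CR43973 (2.70) with Ctps (-0.99) lies far from them.

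No antisense member was called in the direction opposite to that of its overlapping gene in any of the 5 comparisons. Between the days in control, CR44047 with Adss fell, and CR45140 with CG17574, CR44987 with galectin and CR44429 with gce rose. The values of the last 3 members were 0.88 (adjusted p = 0.0109), 0.66 (adjusted p = 0.00111) and 0.58 (adjusted p = 0.0384), and those of their partners 0.71, 0.52 and 0.53. galectin encodes a protein that binds beta-galactosides and gce a receptor of juvenile hormone. In Hnf4i midguts CR46139 rose with CG34112 (1.43 and 1.46) and CR43629 fell with CG31522 (-0.98 and -0.79). All of these pairs share exon bases, so how far the reads of one gene entered the count of the other was not tested. The call of CR45140 was lost without control D4 replicate 2, at 0.68 (adjusted p = 0.0527), and that of CR44429 without any one of 6 libraries (control D3 replicates 2, 3 and 4 and control D4 replicates 1, 2 and 4), the smallest size being 0.46 (adjusted p = 0.113).

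18 of the 63 members tested were called in none of the 5 comparisons. Among those at 3 CPM or more were CR30055, which lies in Sin3A on the opposite strand, with 5.16 to 8.44 CPM over the 16 libraries, and CR31781 with 2.58 to 4.75 CPM. The member with the lowest mean, CR44807, was called between the days in Hnf4i midguts at 0.75 (adjusted p = 0.0359). That call was lost without any one of 5 libraries (Hnf4i D3 replicates 2 and 4 and Hnf4i D4 replicates 1, 3 and 4), with library totals alone, without the count filter and with the compared groups alone, with values of 0.49 to 0.76 and adjusted p of 0.0556 to 0.156. It had 24 to 95 counts a library, and its log2 fold changes within a day or genotype had SEs of 0.292 to 0.298.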

How the data were processed

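RNA of dissected larval midguts was sequenced as stranded libraries of polyadenylated RNA, 16 in all. The authors deposited a table of counts per gene and library, not normalized, and a table of CPM. Each deposited CPM value equalled the count scaled to the library total, within 4.91e-11. The submitters' processing notes name FastQC 0.11.7, MultiQC 1.12, Trimmomatic 0.39, STAR 2.7.10b, R 4.5.1, DESeq2 1.49.3 and the build BDGP6. The study's software list also names Salmon, a tool that quantifies reads, without tying it to a data set. Which tool made this count table, whether it used strand, and against which annotation, is not given in the sources used here, so reads of a gene and of an overlapping gene cannot be told apart. Another deposited sheet held log2 fold changes and adjusted p-values of the authors' own comparisons and was not used. Entries that name no FlyBase gene, 0.0365 to 0.0489% of the counts of a library, stayed out of the tests.

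Counts were tested with edgeR 4.0.16 (quasi-likelihood, two-sided, R 4.3.3) after filterByExpr (minimum count 10, minimum total 15) and TMM scaling, with 1 mean per group over all 16 libraries and Benjamini-Hochberg adjustment over the 9801 genes tested. A call needed an adjusted p under 0.05 and a log2 fold change of at least 0.5 in size. Levels in a library are TMM-scaled CPM, and means over the 16 libraries are deposited CPM. TMM factors were 1.07 to 1.15 on D3 and 0.864 to 0.960 on D4. On simulated counts for Hnf4i against control on D4 (9661 genes), the fit called 81.2% of genes changed by a log2 size of 1, 93.9% of those changed by 2 and 0.0423% of unchanged genes. The changed genes were drawn from all filtered genes. These shares need not hold for the members, whose median mean was 2.22 CPM.

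The members, marker lists and pathway lists were chosen with earlier results of these data known. Genes were named by rule: members with a name of their own, the 10 with the highest mean, per comparison up to 5 called members in each direction with a group mean of at least 2 CPM and no overlap between libraries (overlap allowed for the interaction), their neighbours, called genes of the pathway lists, and up to 4 antisense members called together with the overlapping gene. CR44874, CR46033, CR44417, CR46089, the microRNA hosts, CR30055, CR31781, CR43460, CR45479, the genes seen in control D3 replicate 4 and single values of other named members outside the rule were added after they were seen. Positions and overlaps came from the Ensembl 115 annotation of BDGP6.

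Alternatives were DESeq2 size factors, the DESeq2 1.42.0 Wald test, 2 other filters, no fold minimum, all entries of the table, the compared groups alone, the replicate number as a block, other CPM thresholds for members, and fits without each library or without the 4 libraries with fat body transcripts. Library totals without TMM, the averaged silencing effect and members without shared exons were added after seeing the data. The labels do not say that replicates of a group were separate cultures, so p-values measure the spread between these libraries. No 2 libraries of a group were alike within counting noise (lowest chi-square per degree of freedom 15.9 over 24 pairs).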

Additional observations from a re-analysis of the deposited data

Results flagged for a closer look

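In 7 of 120 groups of 4 libraries examined, of the members named by their level or their calls, 1 library stood apart from the other 3 by more than the 95% critical value of Dixon's gap test allows, where chance alone gives about 6. cherub was highest in control D3 replicate 4 (21.5 CPM) and, within control D4, in replicate 1 (0.0443 CPM, against 0 in the other 3). The lowest library was Hnf4i D4 replicate 2 for CR42549 (13.3 CPM), control D4 replicate 4 for CR42839 (12.6 CPM) and control D4 replicate 2 for CR44192 (14.5 CPM). The highest was control D3 replicate 3 for CR45999 (1.03 CPM) and control D4 replicate 1 for CR42861 (5.21 CPM).

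The change under Hnf4 silencing differed between the days, by edgeR's test of the interaction, for 4 members. CR44138 (1.52 on the log2 scale) and CR32368 (2.18) were higher under silencing on D4, CR43973 (0.83) was lower under silencing on D3, and CR46033 (-1.05) had values of 0.63 on D3 and -0.43 on D4, neither of them called.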

How the results depend on the processing

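Of 3400 values recomputed under alternatives, 3178 kept their direction, their side of the threshold and, for counts, a size within 1.5 times. 157 calls were lost, 26 were gained, 38 counts of members moved by more, and 1 value reversed: CR46089 between the days in Hnf4i midguts went from 0.58 to -0.19 without the 4 libraries with fat body transcripts, a setting that also left no negative interaction call (0). The cause was not tested. With library totals without TMM, 14 members rose between the days in control and 17 in Hnf4i midguts, and 4 on D3 and 8 on D4 were higher under silencing. On D3, 1 member was higher under silencing with DESeq2 size factors, with the compared groups alone and with all entries of the table. Without a fold minimum, 4 were lower on D4 and 10 were higher in the averaged effect. A threshold of 2 CPM left 33 members tested, of which 17 rose in control, 19 rose and 4 fell in Hnf4i midguts, 3 were lower on D3, 1 was lower on D4, 0 had a negative interaction and 2 were lower in the averaged effect. A threshold of 0.5 CPM gave 104 tested, of which 12 fell in Hnf4i midguts, 8 were higher and 5 lower on D4 and 2 had a negative interaction. Among members without shared exons, 14 rose and 3 fell in control, 14 rose and 1 fell in Hnf4i midguts, and 0 had a negative interaction. These last settings count fewer or more members by construction.

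With each library left out in turn, 22 to 28 members rose and 5 to 7 fell in control, and 25 to 30 rose and 7 fell in Hnf4i midguts. Under silencing 1 to 4 were higher and 4 to 5 lower on D3, 4 to 7 were higher and 2 to 3 lower on D4, 3 to 4 had a positive and 0 to 1 a negative interaction, and 5 to 7 were higher and 4 lower in the averaged effect. Without control D3 replicate 4, which held cherub, 4 members were higher on D3. The largest numbers higher on D4 included 7 without control D3 replicate 3, in which both roX RNAs were lowest. The log2 fold change of Hnf4 was -0.95 to -0.90 on D3 and -1.01 to -0.94 on D4.

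Replicate numbers did not pair the libraries: the deviations of 24 same-numbered pairs had an r of -0.17 to 0.09, 0 of them over 0.1. With the replicate block 33 members were called between the days in control, 32 of them among the 34 called without the block, and 34 of the 36 in Hnf4i midguts, 7 on each day under silencing and 4 for the interaction.

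Depth limited the rarer members. roX2 had 5 counts in its lowest library, CR44874 had 3 and CR42874 had 11, so their values in these libraries carry a large counting error, and shared exons limit what can be said of 35 members.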

Other observations

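Summed levels of several marker lists of other cell types moved with the groups, and single markers of a list did not all follow. The 5 visceral muscle markers summed to 4290 to 4998 CPM in control D4 and 2505 to 3915 CPM in Hnf4i D4 libraries, without overlap. The 4 tracheal markers summed to 51.5 to 90.3 CPM on D3 and 11.8 to 28.6 CPM on D4. The 4 progenitor markers summed to 20.9 to 24.8 CPM on D3 and 48.5 to 65.1 CPM on D4, and the 4 markers of copper and iron cells to 2932 to 3484 CPM and 7627 to 9227 CPM. The enteroendocrine sum was 140.2 to 176 CPM on D3 and 184 to 220.2 CPM on D4. Of the 4 progenitor markers, 3 were called higher and 1 lower between the days in control. For copper and iron cells 2 of 4 were called higher in each genotype. Of 7 enteroendocrine markers, 2 were called higher in control, and 1 higher and 1 lower in Hnf4i midguts. Of all genes tested, 17% rose and 22.2% fell in control, and 18.8% and 23.9% in Hnf4i midguts. The 6 Malpighian tubule markers summed to 125 to 142 CPM in control D4 and 67.7 to 115.1 CPM in Hnf4i D4 libraries, and the 6 hemocyte markers to 9.91 to 12.5 and 12.9 to 16.9 CPM. The salivary gland sum did not pass 0.960 CPM in any library, with 2 of 6 markers at 0 in every library. The part of these cells in the changes of the members was not tested.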
